A study of Mus musculus with 8 samples.

Results

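Platr and Snhg genes are families of mouse long non-coding RNA genes, and their levels were read from RNA sequencing of mouse embryonic stem cells (mESCs). Members were all genes with values whose GENCODE M21 symbol, matched by Ensembl gene identifier, starts with Platr or Snhg. There were 44 of them among the 52338 genes with values, 29 Platr genes and 15 Snhg genes. GENCODE M21 classes Platr17, Platr25 and Snhg11 as protein-coding, and the RefSeq gene table names Platr17 as Smim40. RefSeq also gives Platr18 as a synonym of Lncenc1, which is no member by its symbol and is given among the other non-coding RNA genes.

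Platr stands for pluripotency-associated transcript, a name given to non-coding RNAs that are abundant in pluripotent cells and fall as these cells differentiate. Snhg stands for small nucleolar RNA host gene. The introns of such a gene hold small nucleolar RNAs (snoRNAs), which guide chemical modification of ribosomal and other RNAs, while the spliced host RNA often codes for no protein and can be removed by nonsense-mediated decay during translation. Several host genes start with a 5′ terminal oligopyrimidine tract, a run of C and T letters also found at the starts of ribosomal protein genes.

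The study concerned linc1393, an intergenic non-coding RNA, in the maintenance of pluripotency. It had 8 libraries in 4 groups of 2. The sh, sd and dd groups were mESCs treated with sh-linc1393, sd-linc1393 or dd-linc1393, and the control group was untreated wild-type mESCs, with a single mESC source name and no line, clone or time given. What sd and dd stand for is not explained in the labels, and no gene identifier was tied to linc1393, so its own level was not analysed here. The controls received no reagent, so an effect of linc1393 and an effect of being given a reagent cannot be told apart. Each title carries a replicate number, 1 or 2. Separate cultures are not stated for the libraries of a group, so p-values reflect the spread among the libraries as sequenced and may reflect technical spread alone.

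Reads assigned to genes, recovered from the deposited FPKM values (fragments per kilobase of exon, scaled to a library total), ranged from 13738591 to 20387065 in the 6 treated libraries, with 6415130 and 3658368 in the controls. Libraries separated by replicate number more than by group: principal component 1, with 78.4% of the variance, split replicate 2 from replicate 1 in every group. All 10 pluripotent stem cell markers were above 0 in every library, with summed levels of 6949 to 10050 FPKM in replicate 2 and 1432 to 1862 FPKM in replicate 1. Most of that sum in replicate 2 was Dppa5a alone, at 5866 to 8584 FPKM in replicate 2 and 292 to 557 FPKM in replicate 1, while the median log2 difference of the 10 markers was -0.002, with 3 called higher and 1 lower by limma (1 higher and 4 lower after quantile normalization). None of the 9 fibroblast markers was at 0 in replicate 2, where they summed to 7.55 to 9.21 FPKM, against 5 to 7 of 9 at 0 and sums of 0.518 to 4.93 FPKM in replicate 1. The other marker sums were, in replicate 2 and then replicate 1, 1.70 to 10.2 and 25.3 to 37.3 FPKM for 7 primitive endoderm genes, 10.1 to 23.3 and 0.996 to 4.86 FPKM for 6 trophoblast genes, 4.54 to 12.5 and 3.79 to 8.34 FPKM for 4 neuroectoderm genes, and 2.35 to 6.63 and 1.78 to 4.12 FPKM for 4 mesoderm genes. The part of any of these in the values of Platr and Snhg genes was not tested.

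The 2 families differ in what they carry. The annotation places 237 snoRNA or scaRNA (Cajal body RNA) genes inside 14 members, and all 14 hosts are Snhg genes, with 0 in Platr genes. Snhg14, the long imprinted transcript that runs opposite Ube3a, holds 208 of them, and 13 other Snhg genes hold 29. The small RNAs below are shown because their hosts, Snhg8, Snhg12 and Snhg6, were among the 6 most abundant Snhg genes. Their sequences are from GENCODE M21 (GRCm38), 5′ to 3′, with capitals marking the ACA box of Snora24 and the C and D boxes (TGATGA and CTGA) of the other 2.
Snora24, chr3:123507937-123508066, minus strand: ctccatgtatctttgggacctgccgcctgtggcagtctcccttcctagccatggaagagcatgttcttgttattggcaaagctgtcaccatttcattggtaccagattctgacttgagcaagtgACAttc
Snord99, chr4:132310691-132310764, plus strand: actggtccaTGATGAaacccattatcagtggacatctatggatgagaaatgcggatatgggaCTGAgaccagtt
Snord87, chr1:9942463-9942549, minus strand: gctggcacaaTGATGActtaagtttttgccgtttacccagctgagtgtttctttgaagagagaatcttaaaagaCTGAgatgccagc

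The level listed for a hosted small RNA went with how the exons of its host are drawn. Snhg1, Snhg8 and Snhg12 have a single exon block in the annotation, so the letters of Snora24 and Snord99 count as exon of their hosts. Of the 33 hosted small RNAs with values, 18 lie wholly inside host exons and all 18 were listed at 0 in all 8 libraries, Snora24 and Snord99 included. Of the 15 not wholly inside host exons, 6 were at 0 in all libraries, and over all other snoRNA and scaRNA genes the count was 338 of 1066 (31.7%). Snord87, outside the exons of Snhg6, had 8, 9, 7 and 3 reads in sh, sd, dd and control replicate 2, and 14, 11, 5 and 0 reads in replicate 1 of the same groups. The counting program is not given, so whether reads over these small RNAs were counted for the host or left out is not known. Either way, reads from the unspliced and the spliced host cannot be told apart for Snhg1, Snhg8 and Snhg12. If reads over the small RNAs were counted for the host, snoRNA reads may be among the host reads.

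The first 50 bases from the transcript start are shown for 8 of the members that the results turn on and that RefSeq (GRCm38.p6) lists, to set the starts of the Snhg genes beside those of the Platr genes. Letters run 5′ to 3′ and capitals mark the unbroken run of C or T at the start. A run of at least 5 was found in 4 of 17 Snhg windows (23.5%), in 2 of 15 Platr windows (13.3%) and in 4.44% of the 32851 windows of all genes.
Snhg8, chr3:123508287-123508336, minus strand: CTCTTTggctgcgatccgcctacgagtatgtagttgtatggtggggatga
Snhg12, chr4:132308678-132308727, plus strand: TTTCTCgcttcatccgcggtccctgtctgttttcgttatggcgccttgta
Snhg1, chr19:8723487-8723536, plus strand: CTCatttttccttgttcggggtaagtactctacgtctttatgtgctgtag
Snhg5, chr9:88522848-88522897, minus strand: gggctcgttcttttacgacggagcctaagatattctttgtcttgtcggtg
Snhg10, chr12:105032230-105032279, minus strand: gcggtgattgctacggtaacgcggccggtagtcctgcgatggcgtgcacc
Platr10, chr3:75655682-75655731, minus strand: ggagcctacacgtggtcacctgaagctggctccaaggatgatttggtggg
Platr3, chr2:135646523-135646572, plus strand: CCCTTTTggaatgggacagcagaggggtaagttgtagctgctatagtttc
Platr7, chr10:84553289-84553338, minus strand: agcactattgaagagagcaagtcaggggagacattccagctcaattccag

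Snhg8 and Snhg12 started with a run of 6 letters and Platr3 with one of 7, while Snhg5, Snhg10, Platr10 and Platr7 started with a purine. Runs were scored only from the first base that RefSeq lists, so a tract that begins further in was not scored. Both Platr windows with a run of at least 5, those of Platr3 and Platr6, start upstream of the genes as GENCODE M21 draws them. GENCODE M21 places Platr3 at chr2:135648907-135652063, so its printed RefSeq start lies outside the gene to which its levels were matched. The same windows, 250 bases before the start to 50 after it, were searched on both strands for the Pou octamer ATGCAAAT and the Sox core CATTGT. The Sox core read on the other strand, ACAATG, can share its last letters with the octamer. The octamer was in 1 of 15 Platr windows (Platr21), in 0 of 17 Snhg windows and in 1.74% of all windows. Some genes have several windows, so the Sox core is given by gene: it was in a window of 2 of 13 Platr genes (15.4%), of 2 of 14 Snhg genes (14.3%, Snhg17 and Snhg7os) and of 14.3% of all genes, shares that lie close together. These are matches of letters and say nothing of binding.

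The level of the Platr family was spread over more genes in replicate 2 than in replicate 1. The 4 highest Platr genes of each library held 55.6% to 66.3% of the family's summed level in replicate 2 and 85.7% to 88.5% in replicate 1. They were not the same genes: Platr10, Platr17, Platr3 and Platr7 were the 4 highest in every replicate 1 library, while Platr11 led in sh and control replicate 2 and Platr3 in sd and dd replicate 2. The Platr sum was 139 to 168 FPKM in replicate 2 and 408 to 531 FPKM in replicate 1, but the median Platr gene lay the other way, at 0.493 to 2.14 FPKM in replicate 2 and 0.110 to 0.314 FPKM in replicate 1. The Snhg sum was 233 to 324 FPKM in replicate 2 and 154 to 183 FPKM in replicate 1, and the median Snhg gene again lay the other way, at 2.07 to 5.98 FPKM in replicate 2 and 7.14 to 11.3 FPKM in replicate 1. The higher sum of each family follows a few abundant genes, Platr10 and Platr17 among them in replicate 1, and Snhg8 and Snhg6 in replicate 2. More Platr genes were above 0 in replicate 2, 28 to 29 of 29, than in replicate 1, 17 to 24 of 29. Low values were also more numerous over all matched genes. Those above 0 and under 100 reads numbered 21597 to 35778 in replicate 2 and 9640 to 10400 in replicate 1. Wider detection in replicate 2 was thus not particular to Platr genes. In bulk RNA, fewer cells that express a gene and less RNA per cell cannot be told apart.

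**Figure D1:**
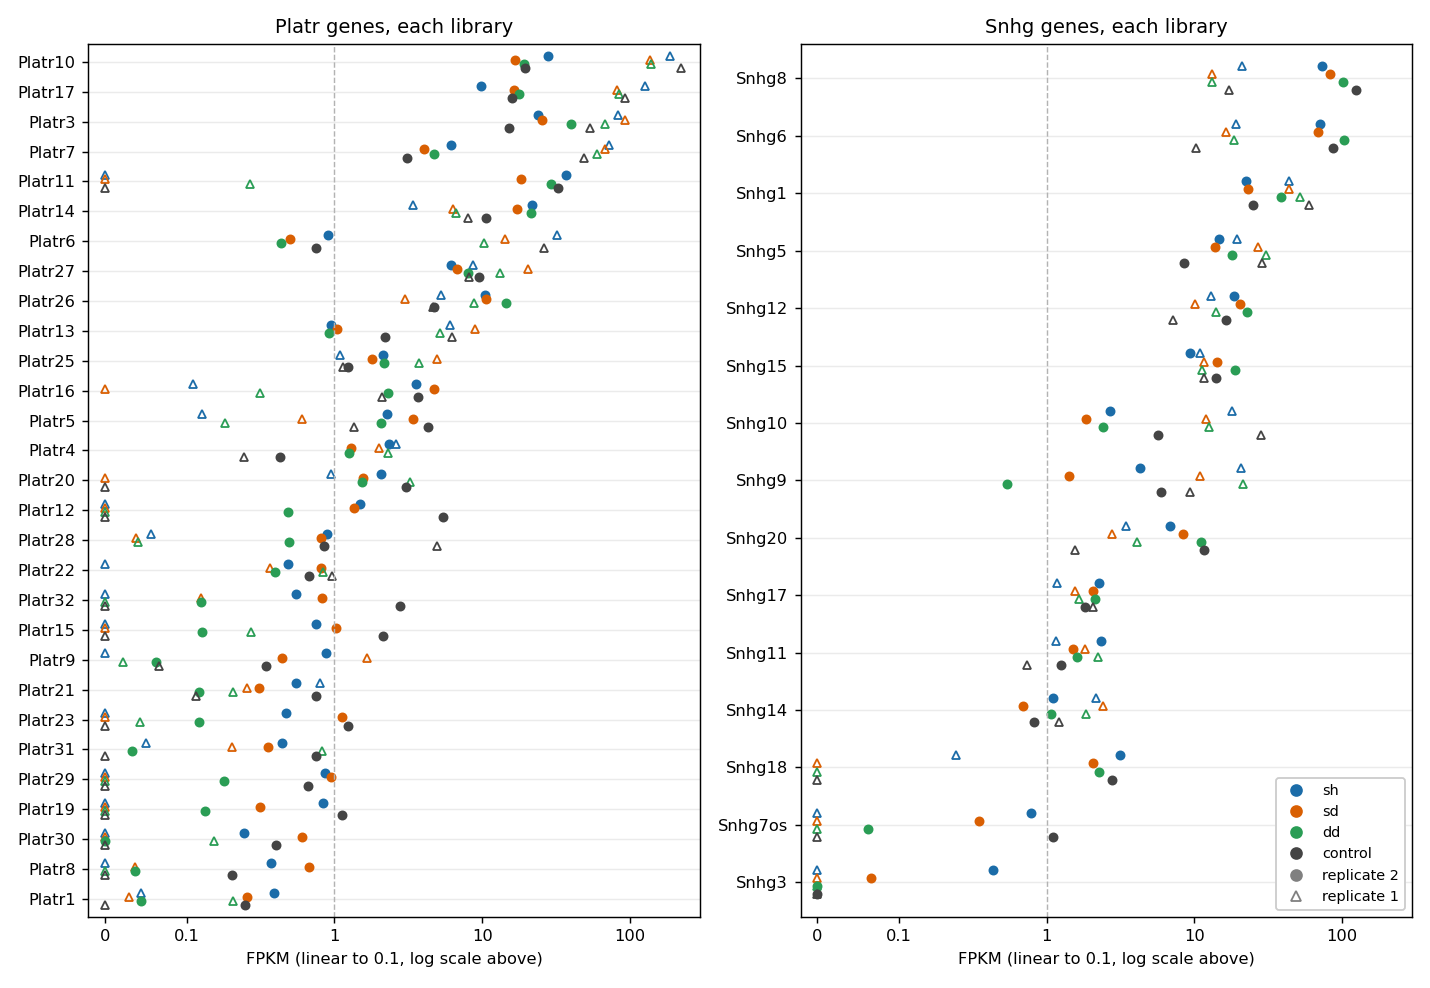
FPKM of each of the 29 Platr genes (left) and 15 Snhg genes (right) in each of the 8 libraries, ordered by mean; filled circles are replicate 2, open triangles replicate 1, colours the groups, and the dashed line 1 FPKM. Platr10, Platr17, Platr3 and Platr7 have their 4 replicate 1 values to the right of their 4 replicate 2 values, and Platr11, Snhg8 and Snhg6 the reverse.

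Platr10, described in mouse stem cells as a chromatin-associated regulator of pluripotency genes, had the highest mean of both families. Its level was 27.9, 16.7 and 19.1 FPKM in sh, sd and dd replicate 2, against 19.4 FPKM in control replicate 2, and 187, 137 and 139 FPKM in sh, sd and dd replicate 1, against 223 FPKM in control replicate 1. Platr17 followed with 9.84, 16.4 and 17.8 FPKM in sh, sd and dd replicate 2, against 15.9 FPKM in control, and 127, 81.4 and 84.7 FPKM in sh, sd and dd replicate 1, against 92.3 FPKM in control. For both genes the treated and control libraries overlapped and the numbers did not. Platr17 shares 31.2% of its 31-base stretches with genes elsewhere, mostly Gm7029, so its reads are uncertain.

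Platr3 was at 24.0, 25.3 and 40.1 FPKM in sh, sd and dd replicate 2, against 15.3 FPKM in control, and at 83.4, 92.8 and 68.0 FPKM in sh, sd and dd replicate 1, against 53.4 FPKM in control. Within each number all 3 treated libraries lay above the control library. Platr7 had 6.12, 4.05 and 4.71 FPKM in sh, sd and dd replicate 2, against 3.07 FPKM in control, and 72.5, 67.4 and 59.5 FPKM in sh, sd and dd replicate 1, against 49.1 FPKM in control, again with each treated library above the control of its number. Platr14 had 21.8, 17.2 and 21.4 FPKM in sh, sd and dd replicate 2, against 10.6 FPKM in control, but 3.41, 6.38 and 6.64 FPKM in replicate 1 of these groups, against 8.0 FPKM in control. The treated libraries of Platr14 were thus above control in replicate 2 and below it in replicate 1.

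Platr11 was seen almost only in replicate 2. It had 36.7, 18.3 and 29.5 FPKM in sh, sd and dd replicate 2 and 32.4 FPKM in control replicate 2, from 199, 109, 233 and 46 reads. In replicate 1 it had 2 reads in dd (0.269 FPKM) and 0 in sh, sd and control. The read ratio of replicate 2 to replicate 1, scaled to the library totals, was 328 with an exact 95% interval of 90.4 to 2715, which covers counting error only. Platr11 overlaps no other gene's exons and shares none of its 31-base stretches with another gene.

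The leading Snhg genes were Snhg8 and Snhg6. Snhg8, the host of Snora24, had 73.0, 83.2 and 101.0 FPKM in sh, sd and dd replicate 2, against 125 FPKM in control, and 21.1, 13.2 and 13.1 FPKM in sh, sd and dd replicate 1, against 17.2 FPKM in control. Snhg6, the host of Snord87, had 71.5, 68.7 and 104 FPKM in sh, sd and dd replicate 2, against 86.8 FPKM in control, and 19.1, 16.4 and 18.4 FPKM in sh, sd and dd replicate 1, against 10.3 FPKM in control. Both were higher in every replicate 2 library than in any replicate 1 library. Exons of Mcmdc2 on the other strand cover 11.1% of the exon bases of Snhg6, and whether strand was used in counting is not given.

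Snhg1, host of Snord22, ran opposite to Snhg8 and Snhg6, with 22.5, 23.3 and 38.4 FPKM in sh, sd and dd replicate 2, against 25.1 FPKM in control, and 43.5, 43.9 and 52.2 FPKM in sh, sd and dd replicate 1, against 59.6 FPKM in control. Snhg5, which holds the Snord50 genes, had 14.6, 13.8 and 18.0 FPKM in sh, sd and dd replicate 2, against 8.57 FPKM in control, and 19.4, 26.8 and 30.8 FPKM in sh, sd and dd replicate 1, against 28.7 FPKM in control. Snhg12, host of Snord99, had 18.4, 20.5 and 22.6 FPKM in sh, sd and dd replicate 2, against 16.4 FPKM in control, and 13.03, 10.2 and 13.9 FPKM in sh, sd and dd replicate 1, against 7.14 FPKM in control, so each treated library was above the control of its number. Snhg15, host of Snora9, kept the narrowest range of the 6, from 9.39 FPKM in sh replicate 2 to 18.9 FPKM in dd replicate 2.

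The remaining members were lower. A mean of at least 1 FPKM over the 8 libraries, the limit for testing, was met by 17 of 29 Platr genes and 13 of 15 Snhg genes. The last member inside it was Platr28, and the first outside it Platr22, with 0.394 to 0.805 FPKM in replicate 2 and 0 to 0.964 FPKM in replicate 1. The 12 Platr genes below the limit had a highest value of 2.78 FPKM in replicate 2 and of 1.66 FPKM in replicate 1. Among them, Platr19 and Platr29 were at 0 in all 4 replicate 1 libraries. Snhg3 and Snhg7os, the 2 Snhg genes below it, were also at 0 in all 4, and 86.3% of the exon bases of Snhg3 lie in exons of other genes. At these depths 3 reads of a gene with 1 kb of exon correspond to 0.147 to 0.820 FPKM, so a gene listed at 0 may have been present at a level under that. For Snhg3 that limit may not hold, since how reads over exons shared with other genes were counted is not given. Control replicate 2, with the fewest reads (3658368), had 29 of 29 Platr genes above 0, and sd replicate 1, with 20346942 reads, had 20.

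The comparisons with control asked which transcripts differ after each linc1393 reagent. They share the 2 control libraries, so their values are set side by side and not counted as separate evidence. No member passed the test over all 14561 genes in sh, sd or dd against control, and no gene did. Limma on log2(FPKM + 1) called 0% of genes in each of these 3 comparisons, with 32, 50 and 83 genes at an unadjusted p under 0.05 in sh, sd and dd, and limma with voom on the recovered reads also called 0, with 7, 11 and 24. The median log2 difference of the tested Platr genes was 0.09 in sh, -0.09 in sd and 0.10 in dd, and that of the Snhg genes was 0.08, 0.01 and 0.20, against 0.15, 0.17 and 0.06 for all genes tested.

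Platr4, linked in mouse stem cells to commitment to the mesoderm lineage, had 2.36, 1.30 and 1.25 FPKM in sh, sd and dd replicate 2, against 0.428 FPKM in control replicate 2. In replicate 1 it had 2.62, 2.002 and 2.29 FPKM in sh, sd and dd, against 0.244 FPKM in control. Every treated library was above both control libraries. The mean was 2.49 ± 0.190 FPKM in sh, 1.65 ± 0.496 FPKM in sd and 1.77 ± 0.736 FPKM in dd, against 0.336 ± 0.130 FPKM in control (SD, n = 2 each).

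The control values of Platr4 rest on few reads. It had 84 and 92 reads in sh, 51 and 104 in sd and 65 and 112 in dd (replicate 2 and replicate 1), against 4 and 4 in control. Scaled to the library totals, the read ratio to control within replicate 2 was 5.50 in sh (exact 95% interval 2.07 to 20.7), 3.04 in sd (1.12 to 11.6) and 2.92 in dd (1.09 to 11.02). Within replicate 1 it was 10.7 in sh (4.05 to 40.2), 8.20 in sd (3.11 to 30.6) and 9.37 in dd (3.56 to 35.0), with intervals for counting error only. On the log2(FPKM + 1) scale sh exceeded control by 1.39, sd by 0.98 and dd by 1.03 (SE 0.52 for each), with a limma adjusted p of 1 in all 3. Platr4 covers chr3:41484024-41493192 on the minus strand (GRCm38), with 3 exon blocks that overlap no other gene's exons.

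Separate libraries alone were common in this table. In sh the libraries of 2 of 17 Platr genes (Platr4 and Platr26) and 0 of 13 Snhg genes lay wholly above control, against 8.4% of all genes tested, and in sd those of 2 Platr genes (Platr4 and Platr25) and 1 Snhg gene (Snhg11), against 11.1%. In dd it was 3 Platr genes (Platr4, Platr25 and Platr26) and 1 Snhg gene (Snhg11), against 11.2%. Wholly below control lay Snhg15 in sh, against a background of 2.13%, Platr28 in sd, against 2.69%, and Platr28 in dd, against 4.72%. With the 6 treated libraries set against the 2 controls, a comparison added after the data were seen, Platr4 was the only member wholly above control, against 3.77% of all genes, and no member was wholly below it, against 0.728%. Limma called 0% of genes in that comparison, with 105 at an unadjusted p under 0.05 (26 with voom). The log2(FPKM + 1) difference of Platr4 in it was 1.13 (SE 0.42).

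Snhg10, host of Scarna13, had the largest decrease within both numbers among the Snhg genes in all 3 comparisons. Its level was 2.71, 1.85 and 2.41 FPKM in sh, sd and dd replicate 2, against 5.68 FPKM in control replicate 2, and 18.0, 12.0 and 12.5 FPKM in sh, sd and dd replicate 1, against 28.3 FPKM in control replicate 1. Each treated library lay below the control library of its number, while the groups overlapped because the numbers differed more. The reads were 20, 15 and 26 in sh, sd and dd replicate 2, against 11 in control, and 131, 129 and 127 in sh, sd and dd replicate 1, against 96 in control. The read ratio to control within replicate 2, scaled to the library totals, was 0.476 in sh (exact 95% interval 0.217 to 1.1), 0.325 in sd (0.139 to 0.781) and 0.424 in dd (0.203 to 0.951). Within replicate 1 it was 0.637 in sh (0.486 to 0.838), 0.424 in sd (0.323 to 0.558) and 0.443 in dd (0.337 to 0.584), so the interval within replicate 2 reached above 1 in sh.

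On the log2(FPKM + 1) scale the difference of Snhg10 from control was -0.85 within replicate 2 and -0.62 within replicate 1 in sh, -1.23 and -1.17 in sd, and -0.97 and -1.11 in dd. Over both numbers it was -0.74 in sh, -1.20 in sd and -1.04 in dd (SE 1.29 each), with a limma adjusted p of 1 in each. That fit leaves out the number, so its SE holds the split between the numbers. With the number as a block, Snhg10 had an unadjusted limma p under 0.05 in sd and dd, but not in sh. It was among 945 and 1310 of 14561 genes there, and none was called. Because the numbers differed so much, leaving out control replicate 1 gave 0.33 in sh and 0.02 in dd, and leaving out sh replicate 2 gave 0.44. Its 2 exon blocks overlap no exon of another gene, and Scarna13 lies outside them, in its intron.

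**Figure D2:**
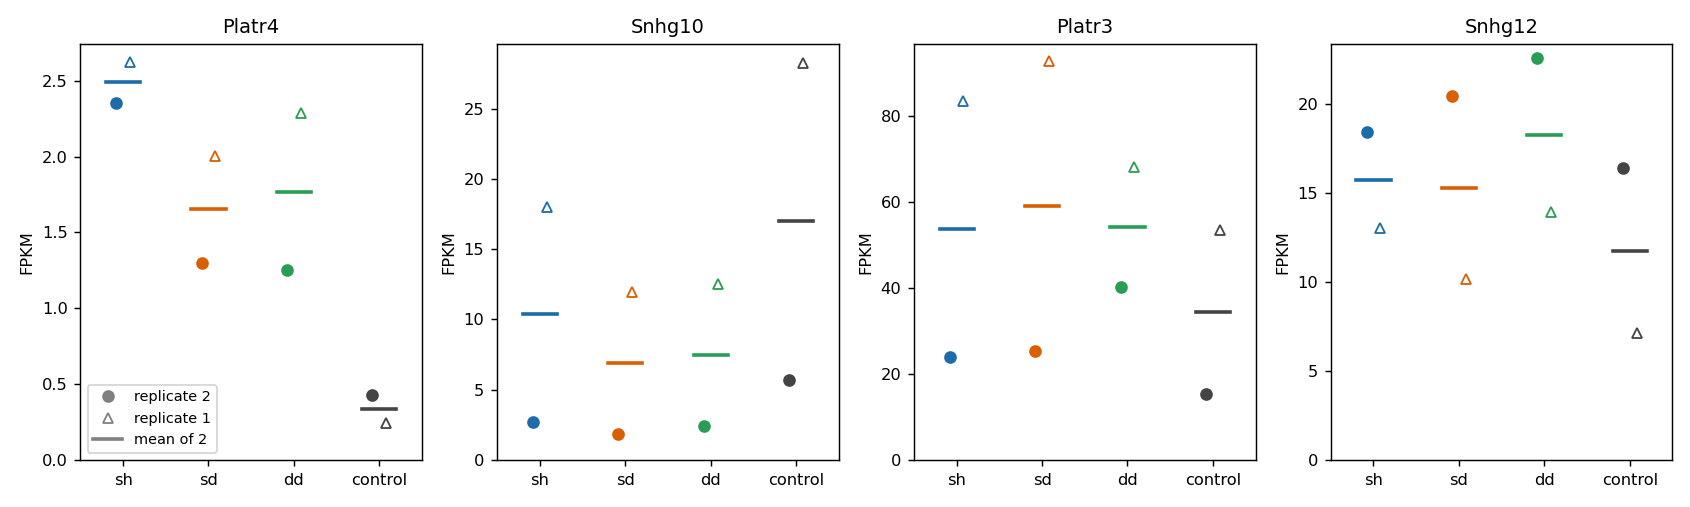
FPKM of Platr4, Snhg10, Platr3 and Snhg12 by group; filled circles are replicate 2, open triangles replicate 1, and bars the mean of the 2 libraries. All 6 treated Platr4 values (1.25 to 2.62 FPKM) lie above both control values, while for the other 3 genes the treated libraries differ from the control of their own number and overlap with the other.

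Differences that kept their sign within both numbers were counted for all members tested. In sh they were higher for 5 of 17 Platr genes and 4 of 13 Snhg genes, against 35.2% of all genes tested, and lower for 3 Platr and 3 Snhg genes, against 10.6%. In sd they were higher for 4 Platr and 2 Snhg genes, against 37.5%, and lower for 4 Platr and 3 Snhg genes, against 12.7%. In dd they were higher for 5 Platr and 5 Snhg genes, against 31% of all genes, and lower for 6 Platr and 2 Snhg genes, against 15.1%. Platr3, Platr4 and Platr7 were among the higher genes in all 3 comparisons, with Snhg11 and Snhg12, and Platr5 and Snhg10 among the lower ones.

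Among those, Platr3 differed from control by 0.62 within replicate 2 and 0.63 within replicate 1 in sh, by 0.69 and 0.79 in sd, and by 1.34 and 0.34 in dd (log2). Fits without the number as a block count the split between the numbers in their SE. The Platr3 difference over both numbers was 0.63 in sh, 0.74 in sd and 0.84 in dd (SE 1.03 each), with a limma adjusted p of 1. It turned negative without sh replicate 1 (-0.25 in sh), without sd replicate 1 (-0.18 in sd) and without control replicate 2 (-0.24 in sh and -0.13 in sd). For dd such fits are not given, and control replicate 1 (53.4 FPKM) lay between dd replicate 2 (40.1 FPKM) and dd replicate 1 (68.0 FPKM). Platr5 differed by -0.70 and -1.07 in sh and -0.79 and -1.0 in dd within replicate 2 and replicate 1. Its levels were 0.127 to 3.41 FPKM in the treated libraries and 4.30 and 1.36 FPKM in control replicate 2 and replicate 1. They rest on few reads, 18 and 1 in sh and 24 and 2 in dd, against 9 and 5 in control (replicate 2 and replicate 1). Platr26 was higher in dd, by 1.44 and 0.80, with 14.4 and 8.79 FPKM in dd, against 4.69 and 4.62 FPKM in control. In sd, Platr25 was higher by 0.32 and 1.47, with 1.80 and 4.93 FPKM, against 1.24 and 1.14 FPKM in control. Platr25 shares 15.5% of its 31-base stretches with genes elsewhere.

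The other Snhg genes that kept a sign did so by small steps. Snhg12 was higher by 0.30 and 0.45 in sd and by 0.44 and 0.88 in dd within replicate 2 and replicate 1, and without control replicate 1 its sd difference was -0.17. Snhg11 was higher in sh by 0.56 and 0.31, and Snhg14 by 0.21 and 0.52. Snhg8 differed by -0.58 and -0.36 in sd and by -0.30 and -0.37 in dd. Without control replicate 2 the Snhg8 difference was 0.93 in sd and 1.06 in dd.

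**Figure D3:**
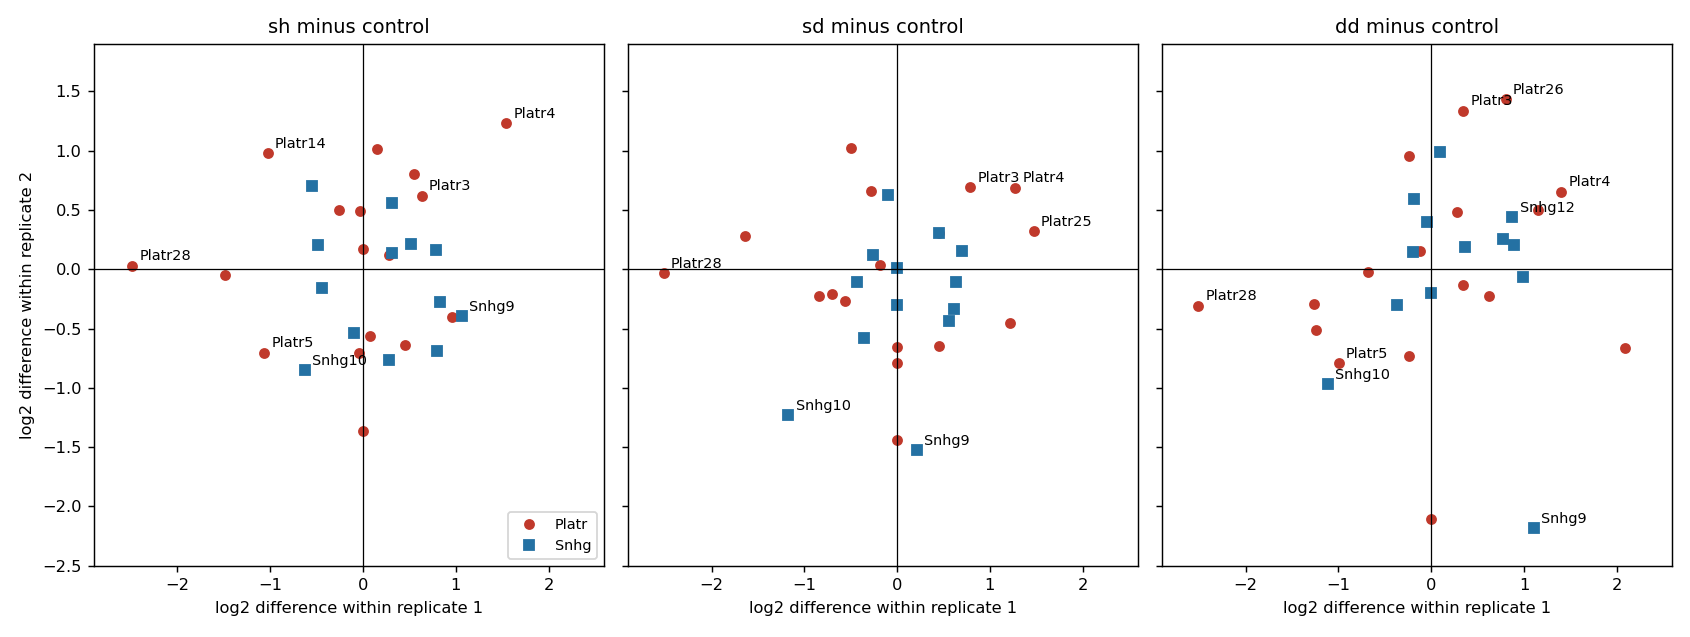
Log2(FPKM + 1) difference from control within replicate 1 (horizontal) and within replicate 2 (vertical) for the 30 tested members, in sh, sd and dd; circles are Platr and squares Snhg genes. Platr4 lies in the upper right and Snhg10 in the lower left quadrant of each panel, while Platr28 reaches -2.49 to -2.52 within replicate 1 and -0.31 to 0.03 within replicate 2.

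Platr28, named after its values were seen, had 0.885, 0.805 and 0.493 FPKM in sh, sd and dd replicate 2, against 0.845 FPKM in control. In replicate 1 it had 0.0563, 0.0380 and 0.0403 FPKM in sh, sd and dd, against 4.94 FPKM in control. The low treated values rest on replicate 1 alone. It shares 14% of its 31-base stretches with genes elsewhere.

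Between the treated groups limma again called 0% of genes, with 13, 14 and 8 at an unadjusted p under 0.05 in sd against sh, dd against sh and dd against sd (3, 11 and 4 with voom). Platr4 lay wholly lower in sd than in sh, against a background of 4.25%, and wholly lower in dd than in sh, against 6.85%. Snhg15 lay wholly higher in sd than in sh, against 4.14%, and it and Platr25 wholly higher in dd than in sh, against 6.2%. No member was separate in dd against sd, with 3.56% of all genes wholly higher and 7.18% wholly lower. The Snhg genes lay on one side there, a pattern noticed after the values were seen. The log2 difference of dd from sd was positive for 13 of 13 (39.4% of all genes tested), with a median of 0.16 against -0.089 for all genes. It was positive for 13 of 13 under quantile normalization and median ratio scaling and for 12 of 13 with a pseudocount of 0.1 or voom. These genes were read from the same libraries and are not separate evidence. On principal component 1 dd replicate 2 was at 65.56, against 102.6 to 120.9 for the other replicate 2 libraries. The part of this in the Snhg pattern was not tested. Within both numbers 8 of 13 Snhg genes were higher in dd than in sd, against 18.7% of all genes, and 0 were lower, against 28.2%. Of the 17 Platr genes, 5 were higher and 3 lower within both numbers.

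Between the replicate numbers, in contrast to the groups, most members differed: 21 of the 30 tested were called. With group in the fit, limma called 61.3% of all genes tested in replicate 2 against replicate 1, 46.6% higher and 14.6% lower. Of 17 Platr genes, 6 were higher and 6 lower, and of 13 Snhg genes, 5 were higher and 4 lower. The median log2 difference was -0.21 for the Platr genes and 0.24 for the Snhg genes, against 0.73 for all genes tested. The sign of the Snhg median turned with the scaling, to -0.579 after quantile normalization (4 higher, 6 lower) and -0.203 after median ratio scaling (4 higher, 5 lower). The Platr median became -1.021 (2 higher, 9 lower) and -0.506 (4 higher, 7 lower) under these scalings. Labels do not say what a number stands for, so culture, day and library preparation cannot be told apart. Each number is a single set of libraries from all groups, so the limma p-values reflect how alike the gap was across groups. They do not measure the spread between repeated sets.

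Among the Platr genes, Platr11 rose by 4.79 log2 in replicate 2 (SE 0.27, limma adjusted p = 3.5e-06), and Platr16 rose by 1.62 and Platr5 by 1.38. Platr16 shares 43.6% of its exon bases with Gm13230, so its reads are uncertain. Platr14, with 17.7 ± 5.21 FPKM in replicate 2 and 6.11 ± 1.93 FPKM in replicate 1, rose by 1.396 log2. The 4 Platr genes with the highest mean over the 8 libraries, Platr10, Platr17, Platr3 and Platr7, fell, but the replicate 1 values carry these means, so the order itself favours genes high in replicate 1. By the mean of the replicate 2 libraries alone, Platr11 came first, at 29.2 ± 7.87 FPKM. Platr7 averaged 4.49 ± 1.28 FPKM in replicate 2 and 62.1 ± 10.2 FPKM in replicate 1 (SD over the 4 groups, n = 4 each), a log2 difference of -3.54 (SE 0.23, limma adjusted p = 5.7e-06). Platr10 averaged 20.8 ± 4.92 FPKM in replicate 2 and 172 ± 41.6 FPKM in replicate 1, a log2 difference of -2.98 (SE 0.23, limma adjusted p = 1.3e-05). Platr6 differed by -3.60 (SE 0.29, limma adjusted p = 1.4e-05), with 0.432 to 0.906 FPKM in replicate 2 and 10.3 to 32.2 FPKM in replicate 1. On the same scale Platr17 fell by 2.61, Platr3 fell by 1.52 and Platr13 fell by 1.75. Platr13 shares 38.8% of its 31-base stretches with genes elsewhere, the most with Platr15, so its reads are uncertain. It had 21 reads over the replicate 2 libraries and 151 over the replicate 1 libraries. Platr4 was not called on FPKM as deposited (-0.21, SE 0.31, limma adjusted p = 0.572), but it was called lower after quantile normalization (-1.021, limma adjusted p = 0.00733).

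Among the Snhg genes, Snhg8 averaged 95.5 ± 22.6 FPKM in replicate 2 and 16.1 ± 3.80 FPKM in replicate 1, a log2 difference of 2.49 (SE 0.26, limma adjusted p = 6.3e-05). Snhg6 averaged 82.7 ± 16.1 FPKM in replicate 2 and 16.1 ± 4.0 FPKM in replicate 1, a log2 difference of 2.31 (SE 0.26, limma adjusted p = 9.3e-05). Snhg18 rose by 1.74 (limma adjusted p = 0.0016), with 2.06 to 3.13 FPKM in replicate 2 and at most 0.245 FPKM in replicate 1. Snhg10 fell, with 3.16 ± 1.72 FPKM in replicate 2 and 17.7 ± 7.56 FPKM in replicate 1, a log2 difference of -2.17 (SE 0.24, limma adjusted p = 8.4e-05). Snhg9, host of Snora78 and opposite Rps2 in 7.65% of its exon bases, fell by 2.20 log2. Snhg1 fell by 0.86 (limma adjusted p = 0.0115), a call that was lost without sh replicate 1, sd replicate 1 or sd replicate 2 (limma adjusted p = 0.0511 to 0.0594).

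**Figure D4:**
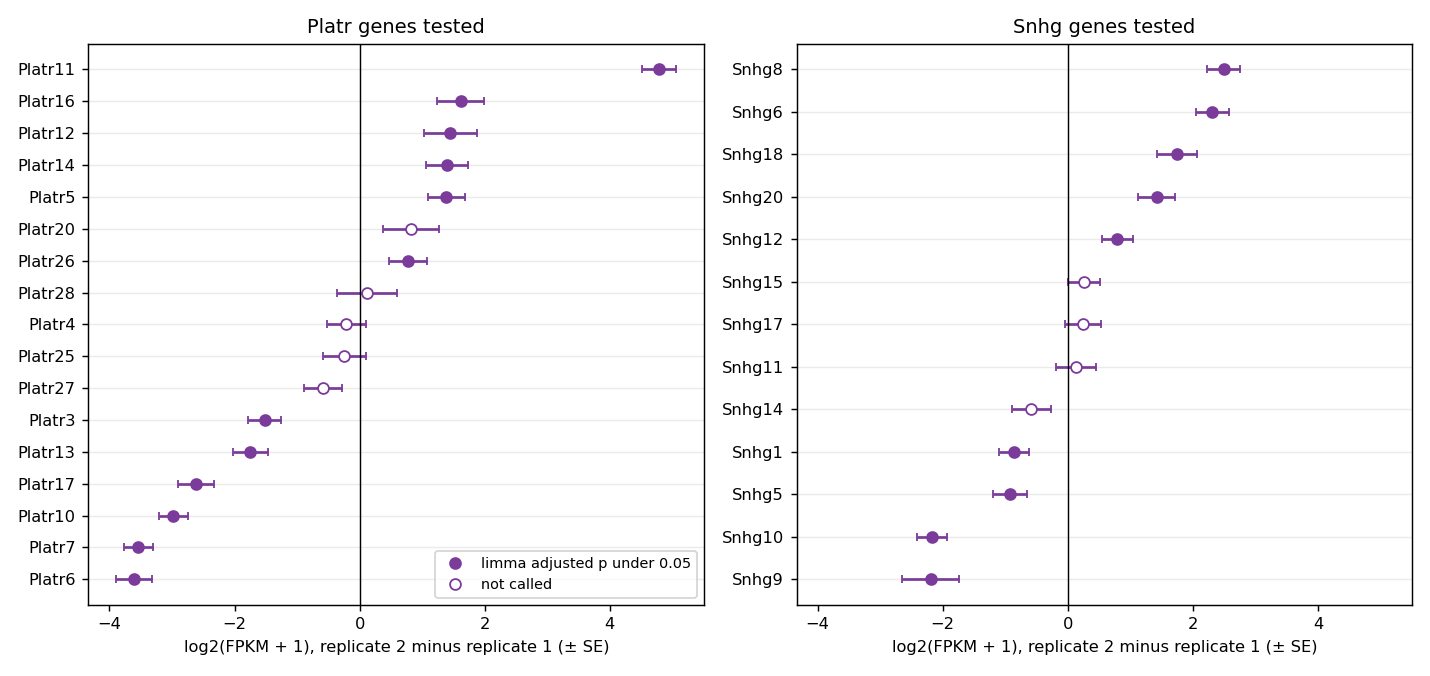
Difference of log2(FPKM + 1), replicate 2 minus replicate 1 with group in the fit, for the 17 Platr (left) and 13 Snhg genes tested (right); bars are standard errors and filled points have a limma adjusted p under 0.05. Platr11 stands highest at 4.79, Platr7 and Platr6 lowest at -3.54 and -3.60, and both families have called genes on either side of 0.

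Scaling moved these counts. Higher calls were 76.1% of all calls on FPKM as deposited, 48% once quantile normalized, 59.8% once scaled by median ratios and 73.3% with voom. The median over all genes tested was 0.02 with quantile normalization and 0.30 with median ratio scaling. Of the 21 called members, 16 kept their call with quantile normalization, 18 with median ratio scaling and 20 with voom. Platr26, Snhg12, Platr16, Platr12 and Platr5 lost it after quantile normalization, and Platr26, Snhg12 and Platr14 after median ratio scaling. Of the members not called on FPKM as deposited, Platr4, Platr25, Platr27, Snhg11 and Snhg14 were called lower after quantile normalization, Platr27 and Snhg14 after median ratio scaling and Snhg14 with voom. The members thus divided into 6 higher and 15 lower with quantile normalization, 8 and 12 with median ratio scaling and 10 and 11 with voom. Snhg11, Platr28, Snhg15 and Snhg17 changed sign under quantile normalization and median ratio scaling, and only Snhg11 of these was called there (quantile normalization, -0.736, limma adjusted p = 0.03).

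Other genes tied to these families were set beside the share of all genes tested between the numbers, 61.3% called, 46.6% higher and 14.6% lower. Of the other snoRNA hosts listed, Epb41l4aos and Zfas1 rose in replicate 2 (3.01 and 0.91 log2, limma adjusted p = 0.00011 and 0.0108) and Gas5 was not called (0.62). Zfas1 lost its call after quantile normalization and median ratio scaling (limma adjusted p = 0.218 and 0.254), while Epb41l4aos was called higher under both. Of 17 proteins of snoRNA particles and their assembly, 6 were higher, Ruvbl2 most (2.68), and 8 lower, among them the assembly factor Naf1 (-2.31) and the pseudouridine synthase Dkc1 (-0.95). Of 15 factors of nonsense-mediated decay and the exon junction, 1 was higher (Smg9, 1.82) and 4 lower, including the helicase Upf1 (-2.75). Of the 10 other long non-coding RNA genes tested, 0 were higher and 6 lower by limma, including Lncenc1 (-2.45), Mir17hg (-1.71), Tug1 (-1.17) and Malat1 (-0.76). Under quantile normalization, as under median ratio scaling, these counts were 4 higher and 9 lower for the snoRNA particle proteins and 1 higher and 7 lower for the decay factors, while the other non-coding RNA genes had 0 higher under both and 10 and 9 lower. Over all 14561 genes tested, 4015 were called higher and 4343 lower with quantile normalization, and 5174 and 3480 with median ratio scaling. No gene of any of these lists was called in a treated group against control.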

How the data were processed

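Standard Illumina libraries were sequenced from total RNA of mESCs, per the labels' protocols. The values are FPKM per gene and library, per the file headers, deposited by the authors. CASAVA 1.4, HISAT2 and mm10 are named in the submitters' processing notes. For the counting program, the annotation, the FPKM formula and strandedness, the entry is: not given in the sources used here.

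The table held 58420 genes, 52338 with values, of which 52081 matched GENCODE M21 (GRCm38, the assembly mm10 names). FPKM times union exon length gave whole reads within 0.02 for 98.3% to 98.9% of values under 100 reads, and so the reads per library. Exact 95% intervals and the floor of 3 reads cover counting error only.

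Limma 3.58.1 in R 4.3.3 was fitted to log2(FPKM + 1), a scale that understates changes of low genes, for 14561 genes with a mean of at least 1 FPKM. The 4 groups were fitted together (4 residual degrees of freedom) with a mean-variance trend, two-sided tests and Benjamini-Hochberg adjustment over all genes at 0.05. Replicate 2 against replicate 1 had group in the fit (3 residual degrees of freedom). The code was tested on simulated data. Members, gene lists and tests were chosen with earlier results of these data known. Named are, per family, the 6 highest means, up to 3 members per treated group with 1 sign within both numbers (by the smaller difference), up to 3 higher and 3 lower between the numbers, and list genes. Other genes, and members named in counts, were chosen after their values were seen. Alternatives were a pseudocount of 0.1, no filter, quantile normalization, median ratio scaling, voom on recovered reads, the replicate number as a block, and leaving out each library.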

Additional observations from a re-analysis of the deposited data

How the results depend on the processing

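The count of called genes was 0 in each of the 6 comparisons between groups, and in the treated libraries against control, under every alternative run, including each library left out. Where 1 library was left out, a group had a single library, assumed to vary like the others, and the split between replicate numbers entered the difference. These fits were followed for chosen members of each comparison, and Platr3 in dd was not among them. Differences followed that changed sign in at least 1 case, with their lowest and highest values, were those of Platr3 in sh (-0.251 to 1.51) and sd (-0.178 to 1.66), Snhg10 in sh (-1.92 to 0.443), dd (-2.11 to 0.0233) and the treated libraries (-2.06 to 0.0718), Snhg8 in sd (-1.86 to 0.928) and dd (-1.76 to 1.09) and Snhg12 in sd (-0.169 to 0.926). Platr4 stayed positive in sh (1.0 to 2.80), sd (0.588 to 2.21) and dd (0.754 to 2.26) under all alternatives, with limma adjusted p-values of 0.448 to 1 outside the fits that left out a library.

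With the replicate number as a block, 0 genes were called in each comparison between groups, and 480, 945 and 1310 had an unadjusted p under 0.05 in sh, sd and dd (442, 950 and 1487 with voom), so the block changed no call. Members among those of the limma fit on FPKM were Platr4 in sh, Snhg10 in sd, and Platr3, Platr4, Platr26 and Snhg10 in dd. Libraries of the same number deviated together from their group means (r from 0.75 to 0.893 over the 6 pairs of groups), a hint from the data, since the labels do not say what a number marks. Replicate 2 against replicate 1 called 6992 to 8789 genes with 1 library left out and 8358 to 10272 under the other settings, against 8920. After quantile normalization Platr5 (0.551) and Platr16 (0.828) were no longer called there. Depth limits the controls most, at 6415130 and 3658368 reads.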
